A study of Homo sapiens with 6 samples.

Results

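Prostaglandins are lipid mediators of inflammation, fever, pain and blood vessel tone that are made from arachidonic acid in the cell membrane. A phospholipase A2 releases the arachidonic acid, a cyclooxygenase converts it to the intermediate prostaglandin H2, and a terminal synthase turns that intermediate into one of several prostaglandins. The products act outside the cell through G protein-coupled receptors and are then taken up and broken down. In many carcinomas the inducible cyclooxygenase COX-2 and its product prostaglandin E2 are studied for their part in inflammation and immune evasion. Described here are 10 genes of this pathway in BT-549 cells, namely the phospholipase PLA2G4A, the cyclooxygenases PTGS1 and PTGS2, the terminal synthases PTGES, PTGES2, PTGES3 and PTGIS, the receptors PTGER2 and PTGER4, and the breakdown enzyme HPGD. The genes were chosen by name and pathway when results of the DOX comparison were already known, and all 10 were found among the 19792 genes of the deposited table.

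The BT-549 line was derived from a human breast tumor and is used as a model of triple-negative breast cancer (TNBC). The cells had been transduced with a puromycin-selected vector from which doxycycline (DOX) induces an shRNA against WDR5, a subunit of the COMPASS complexes that methylate histone H3 on lysine 4. RNA-seq was performed on 3 cultures of these cells treated with 0.1% DMSO as vehicle and on 3 treated with 500 ng/ml DOX, and the study's text gives 7 days of treatment for this comparison. All 6 libraries thus come from cells with the same shRNA vector, and no library of cells with a control shRNA was analysed here, so that the design does not tell an effect of DOX apart from one of WDR5 silencing.

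The value analysed for each gene is the authors' mean normalized count, which is the mean over all 6 libraries, vehicle and DOX together, after scaling for library size. It gives a level in these cells and no difference between the groups. No value of a single library was analysed here, so that the depth of each library and the spread between cultures are unknown, and no SD, interval or test accompanies the levels. Whether neighbours in any order of genes differ beyond the spread between cultures was not tested. The fold changes and p-values that the authors deposited for DOX against vehicle were not used here. The targeted gene WDR5 had a mean normalized count of 1143, which as a mean over silenced and unsilenced cultures does not check the silencing.

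The levels of marker genes were compared with the cell line named by the labels. All 6 genes of a mesenchymal-like breast cancer line (VIM, ZEB1, CDH2, FN1, SPARC and CD44) had mean normalized counts of 4093 to 48038. The hormone receptor genes ESR1 and PGR stood at 0.790 and 0.801, whereas ERBB2, the other receptor by which TNBC is defined, stood at 1221. Of the 9 luminal and receptor genes listed, which include these 3, 5 (55.6%) were at or above a mean normalized count of 10, beside 68.5% of all listed genes. Besides ERBB2 these were the luminal keratin KRT18 (435) and the luminal transcription factor GATA3 (362), both above the median gene of the table, and E-cadherin CDH1 (59.6) and the keratin KRT8 (57.3). EPCAM and FOXA1 stood at 1.30 and 0.516. Among markers of other cell types, the endothelial PECAM1 and CDH5 summed to 3.04, the platelet genes ITGA2B and PF4 to 10.8, and the mast cell gene CPA3 stood at 9.05. The leukocyte genes PTPRC and CD14 had mean normalized counts of 44.7 and 24.0. CD3E and the mast cell gene TPSAB1 had no row. In RNA from whole cultures, few cells with a high level and many cells with a low level of a transcript cannot be told apart.

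The 10 genes spanned 4 orders of mean normalized count, from 1.22 for PTGS1 to 12580 for PTGES3. A floor of 10 was used as a working cut above the bottom of the table, and a gene above it can still be low. The leukocyte genes PTPRC (44.7) and CD14 (24.0) were above it too, at levels like those of PTGER2 (45.7) and HPGD (22.0). Of the 10 genes, 9 were at or above this floor, and PTGS1 alone was under it. Of all 19792 listed genes, 13548 (68.5%) were at or above it. The median gene of the table had a mean normalized count of 187, with quartiles at 3.67 and 1173. PTGES3, PTGES and PTGER4 lay above the upper quartile, PTGS2, PTGES2, PTGIS and PLA2G4A lay between the median and the upper quartile, PTGER2 and HPGD lay between the lower quartile and the median, and PTGS1 lay below the lower quartile. Together the 10 genes held 0.0782% of the summed mean normalized counts, and PTGES3 made up 60.6% of their sum.

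**Figure D1:**
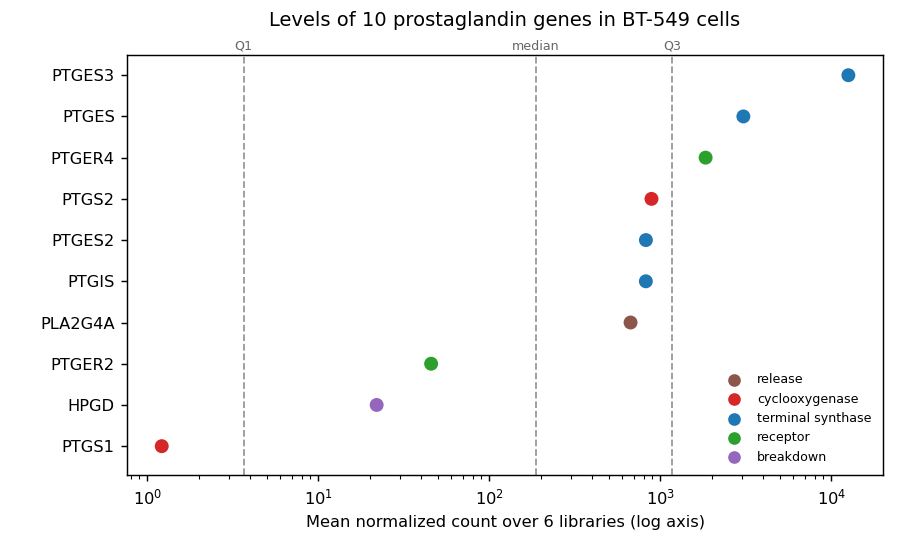
Each point is the authors' mean normalized count over all 6 libraries (log axis) of a prostaglandin gene, coloured by its step in the pathway, and the dashed lines are the quartiles and the median of all 19792 listed genes. PTGES3 stands at 12580 and PTGS1 at 1.22, and PTGS2, PTGES2, PTGIS and PLA2G4A lie close together between 670 and 888.

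Longer transcripts collect more reads, so levels of different genes were compared per kilobase of transcript. The length used was that of the representative transcript of each gene in GENCODE 44, and ratios between genes are given with their range over 4 definitions of length (representative transcript, merged exons, longest transcript and coding part). Per kilobase, the first 3 places were held by PTGES3 (6628), PTGES (1748) and PTGER4 (536) and the last 3 by PTGER2 (18.6), HPGD (8.38) and PTGS1 (0.242). This held under each of the 4 definitions. The order among PTGES2, PLA2G4A, PTGS2 and PTGIS changed with the definition.

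The cyclooxygenases form prostaglandin H2. PTGS1 encodes COX-1, which is made constitutively in many tissues, including platelets and the stomach lining, and PTGS2 encodes COX-2, which is induced by inflammatory signals. PTGS2 lies on chromosome 1 of GRCh38 from 186671791 to 186680922 on the minus strand, and PTGS1 lies on chromosome 9 from 122370530 to 122395703 on the plus strand. The mean normalized count was 888 for PTGS2 and 1.22 for PTGS1. For PTGS1 this amounts to 7.29 normalized counts summed over the 6 libraries, a level at the 17.6 percentile of all listed genes. Per kilobase, PTGS2 stood at 197 and PTGS1 at 0.242, a ratio of 813 with a range from 725 to 813 over the definitions of length. PTGS2 thus held 99.9% of the summed cyclooxygenase level on either scale. The ratio has no error, and its denominator rests on few reads. An antisense transcript, PACERR, shares 219 exonic bases with PTGS2 and had a mean normalized count of 0.858. The strand setting of the authors' counting is not given in the sources used here.

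As the pair of genes at the opposite ends of these levels for a single reaction, PTGS2 and PTGS1 are shown with the 250 bases before their RefSeq starts (GRCh38.p14), written from 5′ to 3′ along the gene. Capitals mark matches, on either strand, to letters that were chosen after the sequences had been looked at. These are TATAA (TATA box), CGTCA (core of the cyclic AMP response element, CRE), TGANTCA (AP-1), TTGCGNAA (C/EBP core), GGGCGG (GC box) and a loose NF-κB-like pattern of GGG and CC with any 5 bases between them, which can overlap a GC box. PTGS1 has 2 starts in RefSeq, and both are given.
PTGS2, 1:186680424-186680673, minus strand: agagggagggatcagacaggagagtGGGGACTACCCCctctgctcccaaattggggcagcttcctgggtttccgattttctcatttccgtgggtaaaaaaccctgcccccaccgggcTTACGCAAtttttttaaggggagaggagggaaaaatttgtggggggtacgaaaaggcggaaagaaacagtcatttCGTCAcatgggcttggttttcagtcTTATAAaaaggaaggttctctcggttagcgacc
PTGS1, first start, 9:122370283-122370532, plus strand: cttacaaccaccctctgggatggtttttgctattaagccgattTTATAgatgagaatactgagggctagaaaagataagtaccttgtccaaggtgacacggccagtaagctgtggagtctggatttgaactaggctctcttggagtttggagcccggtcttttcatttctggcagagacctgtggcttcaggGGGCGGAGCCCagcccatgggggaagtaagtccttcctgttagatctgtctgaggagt
PTGS1, other start, 9:122375052-122375301, plus strand: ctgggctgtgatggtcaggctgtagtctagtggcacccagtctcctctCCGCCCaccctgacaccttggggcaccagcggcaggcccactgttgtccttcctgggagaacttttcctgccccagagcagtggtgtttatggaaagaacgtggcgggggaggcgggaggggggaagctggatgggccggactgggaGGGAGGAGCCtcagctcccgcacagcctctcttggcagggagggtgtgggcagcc

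The PTGS2 window holds TATAA along the gene 32 bases before the start. It also holds the CRE core 58 bases before the start and the C/EBP core 133 bases before it. The NF-κB-like letters begin 225 bases before it. Both PTGS1 windows also hold the NF-κB-like letters, which begin 58 bases before the first start and 55 bases before the other. The first window holds the TATA letters only on the opposite strand, as TTATA 207 bases before its start. Neither PTGS1 window holds the CRE core or the C/EBP core, and both hold a GC box, which the PTGS2 window does not. Matches on either strand were also counted over the windows of the same length before all 35116 RefSeq starts. TATAA was found in 18.9%, CGTCA in 21.2%, TTGCGNAA in 0.752%, TGANTCA in 6.57%, GGGCGG in 42.6% and the NF-κB-like pattern in 54.4%. The AP-1 letters were in none of the windows of PTGS2 and PTGS1. The GC content was 50.4% for PTGS2 and 49.6% and 65.2% for PTGS1, beside a median of 58.0% over all windows. Such matches describe the letters only, and no measurement of binding or of chromatin was analysed here.

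PLA2G4A encodes cytosolic phospholipase A2 alpha, the calcium-dependent enzyme that releases arachidonic acid for the cyclooxygenases. It lies on chromosome 1 from 186828949 to 186988981, with 148026 bases between it and PTGS2. Its mean normalized count was 670, and 233 per kilobase. The ratio of PTGS2 to PLA2G4A per kilobase was 0.846 and ranged from 0.696 to 1.64 over the definitions of length, so that which of the pair was higher depends on the definition. PLA2G4A led the 13 phospholipase genes that were listed for this step, per kilobase and by mean normalized count. Of these 13, 8 had a row and 5 reached the floor, which is 62.5% of those with a row beside 68.5% of all listed genes. After PLA2G4A came PLA2G15, a lysosomal phospholipase (183 per kilobase), the secreted PLA2G12A (87.5), the calcium-independent PLA2G6 (28.3) and PLA2G4C (21.3). The secreted PLA2G2A, the main phospholipase of inflammatory fluids, had a mean normalized count of 1.14.

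The terminal synthases decide which prostaglandin is formed. Prostaglandin E2 is made by PTGES, the inducible microsomal enzyme that works with COX-2, by PTGES2, a membrane-associated enzyme, and by PTGES3, which is also known as p23, a cochaperone of HSP90. PTGES3 lies on chromosome 12 from 56663341 to 56688408 and was the highest of the 10 genes, at 12580 in mean normalized count and at rank 289 of all listed genes. PTGES, on chromosome 9 from 129738331 to 129753042, had 3060, and PTGES2, on the same chromosome from 128120693 to 128128462, had 824. Per kilobase, PTGES3 stood at 6628, PTGES at 1748 and PTGES2 at 516. PTGES3 exceeded PTGES by 3.79 times (2.29 to 3.91 over the definitions of length), and PTGES exceeded PTGES2 by 3.39 times (3.39 to 12.0). The order of the 3 genes was the same under every definition. GENCODE 44 lists 5 pseudogenes of PTGES3, none of which had a row, and reads of such copies may not be told apart from those of PTGES3.

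The HSP90 system with which p23 works was also at high levels. HSP90AA1 and HSP90AB1, the inducible and the constitutive cytosolic HSP90, stood at 32552 and 22200 per kilobase, and the cochaperones STIP1 and AHSA1 stood at 3552 and 2570. PTGES3 lay between these chaperone and cochaperone genes, at the 98.9 percentile per kilobase among the 18419 genes with a length.

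PTGIS, the prostacyclin synthase, turns prostaglandin H2 into prostacyclin, a vasodilator and inhibitor of platelets that is best known as a product of endothelium. It lies on chromosome 20 from 49503874 to 49568137, and its mean normalized count of 823 was close to those of PTGES2 (824) and PTGS2 (888). Its representative transcript is 5570 bases long, and per kilobase PTGIS stood at 148. PTGES was 11.8 times higher (10.9 to 12.2), whereas the ratio of PTGES2 to PTGIS was 3.49 and ranged from 0.916 to 3.49. The endothelial markers PECAM1 and CDH5 were at 2.86 and 0.172. PTGIR, the prostacyclin receptor, had a mean normalized count of 0.144, or 0.863 normalized counts summed over the 6 libraries. The ratio of PTGS2 to PTGIS per kilobase was 1.33 (0.893 to 1.33). PTGS2 and PTGIS thus had like levels as means over vehicle and DOX libraries together, which need not hold in either group. The receptor gene for prostacyclin was near the bottom of the table.

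Of the 9 terminal synthase genes listed, 7 (77.8%) reached the floor, beside 68.5% of all listed genes. Besides PTGES, PTGES2, PTGES3 and PTGIS these were CBR1, a carbonyl reductase that can convert prostaglandin E2 to F2 alpha (1844 per kilobase), AKR1C3, which forms prostaglandin F2 alpha (313), and the thromboxane synthase TBXAS1 (7.42). The prostaglandin D2 synthases PTGDS and HPGDS had mean normalized counts of 8.56 and 0.124, both under the floor, beside 14.3 for TBXAS1. Per kilobase PTGDS (10.5) was above TBXAS1 (7.42), so that which of them was higher depends on the scale, and HPGDS stood at 0.0777.

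**Figure D2:**
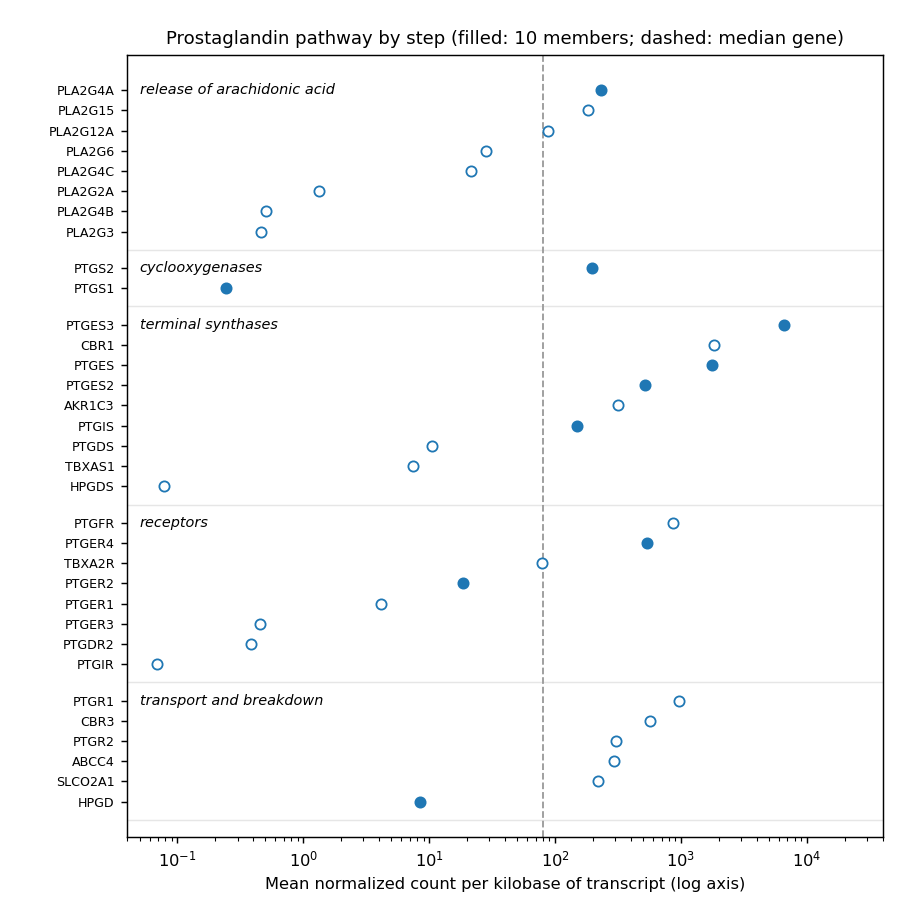
Each point is the mean normalized count per kilobase of the representative transcript (log axis) of a gene of the prostaglandin pathway that had a row, grouped by step, and filled points are the 10 genes described here. The dashed line is the median of all genes with a length (80.6), and within the steps PTGS1 (0.242), HPGD (8.38) and PTGIR (0.0692) stand at the low end.

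PTGER2 and PTGER4 encode EP2 and EP4, the receptors for prostaglandin E2 that couple to Gs and raise cyclic AMP. PTGER4 lies on chromosome 5 from 40679915 to 40693735 and PTGER2 on chromosome 14 from 52314305 to 52328598. Their mean normalized counts were 1840 and 45.7. Per kilobase PTGER4 stood at 536 and PTGER2 at 18.6, a ratio of 28.8 that varied little with the definition of length (28.0 to 29.5). PTGER4 held place 3 among the 10 genes and PTGER2 place 8. The other prostaglandin E2 receptors were lower, with mean normalized counts of 5.86 for PTGER1 (EP1, which couples to calcium signalling) and 1.06 for PTGER3 (EP3, which lowers cyclic AMP).

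Of all 9 prostanoid receptor genes, 8 had a row and 4 reached the floor. The highest was PTGFR, the receptor for prostaglandin F2 alpha, with a mean normalized count of 4675 and 861 per kilobase, which exceeded PTGER4 by 1.61 times (1.56 to 3.45 over the definitions of length). The thromboxane receptor TBXA2R stood at 78.7 per kilobase, and PTGER4 exceeded it by 6.82 times (6.22 to 7.06). PTGFR and PTGER4 held 57.4% and 35.8% of the summed receptor level per kilobase, and PTGER2 held 1.24%. The prostaglandin D2 receptor PTGDR2 stood at 1.11 in mean normalized count and PTGDR had no row.

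HPGD encodes 15-hydroxyprostaglandin dehydrogenase, which oxidises prostaglandin E2 as the first step of its inactivation. It lies on chromosome 4 from 174490175 to 174523154. A long noncoding RNA gene on the opposite strand shares 314 exonic bases with HPGD and had no row. The mean normalized count of HPGD was 22.0, at the 36.3 percentile of all listed genes, and 8.38 per kilobase. The other genes listed for transport and breakdown were higher. These were the reductases PTGR1 (966 per kilobase), CBR3 (563) and PTGR2 (302), the exporter ABCC4 (293) and the prostaglandin importer SLCO2A1 (218), which brings prostaglandins to HPGD inside the cell. Per kilobase, PTGR1, which acts on the product of HPGD, exceeded HPGD by 115 times (56.9 to 115), and SLCO2A1 exceeded it by 26.0 times (16.7 to 43.5). All 6 genes listed for transport and breakdown were at or above the floor, beside 68.5% of all listed genes, and HPGD was the lowest of them.

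Over the wider pathway of 39 genes, which includes the 10, 33 had a row and 23 reached the floor. This is 69.7% of those with a row, beside 68.5% of all listed genes, so the share of the pathway at or above the floor was close to that of the table. Without the 10, of which 9 reached the floor, the count was 14 of 23 (60.9%), under the share of all listed genes. The 10 genes lie on 7 chromosomes, with PTGS1, PTGES and PTGES2 on chromosome 9 and PTGS2 and PLA2G4A on chromosome 1.

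The place of each gene among all genes depended to a different extent on the definition of its length. PTGES3 stayed between the 98.6 and the 99.4 percentile, PTGES between 94.2 and 96.8, and PTGS1 between 9.08 and 10.5. PLA2G4A moved most, between 50.5 and 75.1, its coding part being 2247 of 2879 bases. PTGES2 stood at 80.3 with its representative transcript (1598 bases) and at 65.3 with its merged exons (6084 bases). With the longest transcript it stood at 69.1 and with the coding part at 67.0. The middle of the order, from PTGES2 to PTGIS, changed with the definition of length, whereas the places of PTGES3, PTGES, PTGER4, PTGER2, HPGD and PTGS1 did not. Whether any part of the order holds beyond the spread between cultures was not tested.

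**Figure D3:**
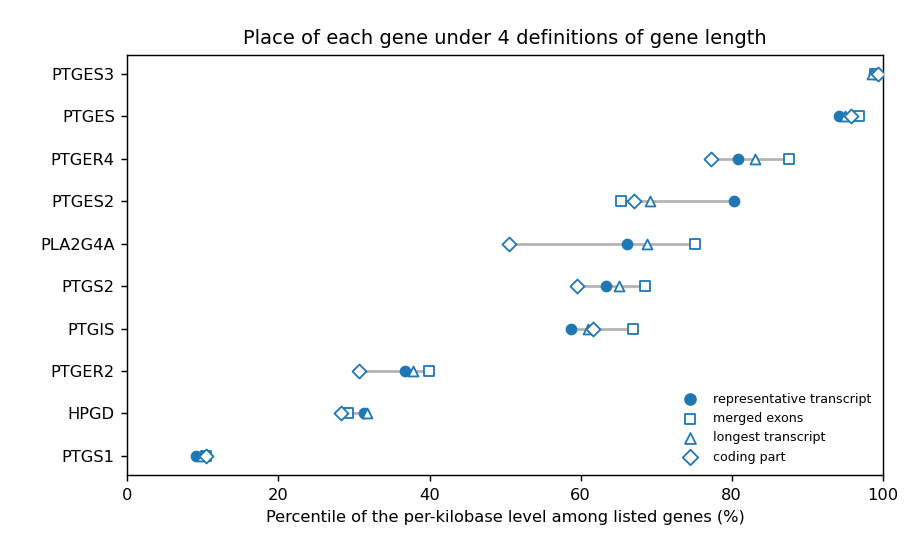
For each of the 10 genes, points give the percentile of its per-kilobase level among all genes with that length, under 4 definitions of gene length, and the grey line spans them. PTGES3 (98.6 to 99.4) and PTGS1 (9.08 to 10.5) hardly move, whereas PLA2G4A spans 50.5 to 75.1.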

How the data were processed

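Stranded poly(A) RNA-seq libraries from 3 vehicle-treated and 3 DOX-treated cultures were aligned by the authors to GRCh38 with STAR, and gene counts were normalized and compared with DESeq2. For RNA isolation the labels state an RNeasy kit and the paper Trizol. The paper's methods add a release-like suffix to the name of the genome and name no annotation otherwise. The gene counter, its strand setting and any low-count filter are not given in the sources used here. The deposited mean normalized count, a signal value, was averaged by the authors over all 6 libraries and was the only column used. The other 5 columns of values hold the authors' comparison of DOX with vehicle (log2 fold change, standard error, statistic, p-value and adjusted p-value) and were not used. The design planned a count test for a table of single samples, which did not apply.

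Levels were ranked by percentile (share of genes at or below) and divided by transcript length in kilobases. Of 19792 symbols, 17571 matched GENCODE 44 directly, 848 through a RefSeq synonym and 1373 did not match. The representative transcript is the Ensembl canonical one, which need not be the model that the authors counted. Promoter sequences were those of RefSeq (GRCh38.p14) before the start, found for 9 of the 10 genes. The percentile and motif functions were tested on simulated data. The members were chosen, and the lists written, with earlier results of these data known. All 10 members are named, as are genes of the lists at or above the floor of 10 or at a step of the pathway that they leave without a transcript at that floor. Python 3.11.15, numpy 2.4.6, pandas 2.3.3 and matplotlib 3.10.9 were used. A marker gene of the lists is not reported here.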

Additional observations from a re-analysis of the deposited data

How the results depend on the processing

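With no values of single libraries, the levels carry no replicate error, and a moved value is one that differs by more than 0.5% from the reported one. The median percentile of the 10 genes was 68.9 among all listed genes, 62.9 among the 16597 genes with a level of 1 or more and 54.5 among the 13548 with 10 or more, where PTGS1 drops out. Per kilobase the median percentile was 64.8 with the representative transcript, 67.7 with merged exons, 66.9 with the longest transcript and 60.6 with the coding part. The share of the 10 genes was 0.0782% of the summed normalized counts, and 0.0956% without the 100 highest genes. Of the 45 pairs of genes, 41 to 43 kept the order of mean normalized counts per kilobase. Of 33 wider pathway genes with a row, 31, 25, 20 and 18 reached floors of 1, 5, 50 and 100, beside 23 at 10. The neighbouring lists hold the lipoxygenase and leukotriene enzymes, the leukotriene receptors, the cyclic AMP genes and the HSP90 system genes named with PTGES3. Of their 25 genes with a row, 15 to 21 reached these floors, beside 18 at 10. The shares at 10 were 69.7% for the wider pathway and 72.0% for the neighbouring lists, beside 68.5% of all listed genes. The 72.0% pools unlike lists, with 16.7% for the lipoxygenase and leukotriene enzymes and 66.7% for the leukotriene receptors. The cyclic AMP genes had 91.7% and the HSP90 system genes 100%. At 1, 16597 of all 19792 listed genes were counted, and at 5, 50 and 100 the count over all genes was not computed. The share of PTGS2 in the summed cyclooxygenase level was 99.9% on every scale. Of 30 percentiles of single genes with other lengths, 27 moved, by at most 15.6 points. No paired analysis was possible because the column used is a mean over all libraries, and for the same reason the planned count tests, with a replicate left out, without a filter or with DESeq2, were not run.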

Other observations

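The lipoxygenase and leukotriene enzymes form the other main route from arachidonic acid, and most genes listed for them were low or had no row. Besides the genes of leukotriene synthesis, the list holds the other lipoxygenase genes ALOX12, ALOX12B, ALOX15, ALOX15B and ALOXE3. Of 9 lipoxygenase and leukotriene enzyme genes, 6 had a row and 1 reached the floor of 10. This is 16.7% of those with a row, beside 68.5% of all listed genes. The gene at or above the floor was LTA4H, the leukotriene A4 hydrolase, which is also an aminopeptidase of most tissues (mean normalized count 912). ALOX5AP, the activating protein of 5-lipoxygenase, stood at 1.29, the leukotriene C4 synthase LTC4S at 0.431, and ALOX15, ALOX12 and ALOXE3 at 0.911, 0.226 and 2.12. ALOX5 itself, ALOX12B and ALOX15B had no row. Of the leukotriene receptors, LTB4R stood at 111 and LTB4R2 at 17.3, whereas CYSLTR2 stood at 0.420 and CYSLTR1 had no row.

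Of 12 genes listed for the cyclic AMP route downstream of EP2 and EP4, 11 (91.7%) were at or above the floor. The share of all listed genes was 68.5%. The list is a selection and holds ADCY3, ADCY6, ADCY7 and ADCY9 as its only adenylyl cyclases. GNAS, the alpha subunit of Gs, had a mean normalized count of 24051, at the 99.5 percentile of all listed genes. Among these adenylyl cyclases, ADCY6 (1114), ADCY9 (957) and ADCY3 (770) were far above ADCY7 (19.5). Per kilobase, ADCY6 stood at 183, ADCY3 at 155 and ADCY9 at 120. The protein kinase A genes PRKAR1A (6942), PRKAR2A (3278), PRKACA (2942) and PRKACB (1171) and the transcription factor gene CREB1 (1635) were above the median gene. The Epac genes RAPGEF3 (19.1) and RAPGEF4 (8.31), which encode the other cyclic AMP sensors, were low.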
